A study of Danio rerio with 4 samples.

Results

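The mitochondrial ribosomal protein genes are the nuclear genes named mrpl (large subunit) or mrps (small subunit) that encode the protein part of the ribosome inside mitochondria. They were chosen by symbol alone, as every gene of the deposited tables whose Ensembl symbol, read without case, begins with mrpl or mrps followed by a digit. There were 71 such genes among 20269 in the tables, with 44 large-subunit and 27 small-subunit symbols. Of 75 symbols in the reference table that meet the rule, 4 (mrpl20, mrpl22, mrpl57 and mrps15) had no first-exon or last-exon entry in any library. No level could be taken for them, and the counts below leave them out.

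RNA was measured by sequencing in hearts of Tg(vmhc:mCherry-NTR) zebrafish larvae at 5 days post fertilization. The vmhc promoter drives nitroreductase, which turns metronidazole (MTZ) into a toxin, in ventricular cardiomyocytes. There were 4 groups with 1 library each, called injured SIS3, injured DMSO, uninjured SIS3 and uninjured DMSO. All 4 carry the transgene. Injured larvae spent 4 hours in MTZ at 5 mM, begun at 72 hours of development, and were 2 days past that treatment at collection. From 76 to 124 hours larvae were kept either in SIS3 at 2 µM, which blocks Smad3 phosphorylation, or in the vehicle DMSO at 0.2%. The sources used here do not say whether uninjured larvae also received MTZ or how many hearts were pooled in a library.

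With no replicates, no difference could be checked between replicates or given a p-value. A gene is called higher or lower only where its change, defined below on scaled levels with 1 FPKM added, reaches 2-fold. Levels are FPKM (fragments scaled by transcript length and by the size of the library) as deposited. Changes are differences of log2(scaled FPKM + 1), which understate the change of low genes. In whole hearts, fewer cells of a type and less RNA per cell cannot be told apart.

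The mitochondrial ribosome translates the few proteins encoded by mitochondrial DNA, all of them core subunits of the respiratory chain and the ATP synthase. All its proteins are made in the cytosol from nuclear genes and imported, and they assemble with ribosomal RNAs transcribed from mitochondrial DNA. Part of them have relatives in the bacterial ribosome, and the others are found only in mitochondria. The heart is rich in mitochondria, and in humans variants of several of these genes, among them MRPL3, MRPL44 and MRPS22, are known in inherited cardiomyopathy.

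The genes were expressed as an even set in every library. Of the 71, 69 had an entry in all 4 libraries. The median level of listed members was 28.5 FPKM in injured SIS3, 31.7 FPKM in injured DMSO, 23.5 FPKM in uninjured SIS3 and 26.2 FPKM in uninjured DMSO. Averaged over the libraries, 66 members reached 10 FPKM and 50 reached 20 FPKM. The spread over members was an SD of 0.72 to 0.81 on the log2 scale of the level, against 2.09 to 2.17 over 91 nuclear-encoded subunits of oxidative phosphorylation and 1.48 to 1.58 over 71 cytosolic ribosomal proteins. Both lists were drawn by symbol and also hold genes of other roles. Among these are sdhaf2, sdhaf3, sdhaf4, atp5if1a and atp5if1b in the first and rpl7l1 in the second. Their names stand for the whole lists in what follows. The summed level of large-subunit members was 1.99, 2.04, 1.95 and 2.01 times that of small-subunit members in injured SIS3, injured DMSO, uninjured SIS3 and uninjured DMSO, so this ratio stayed within a narrow range over the libraries.

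**Figure D1:**
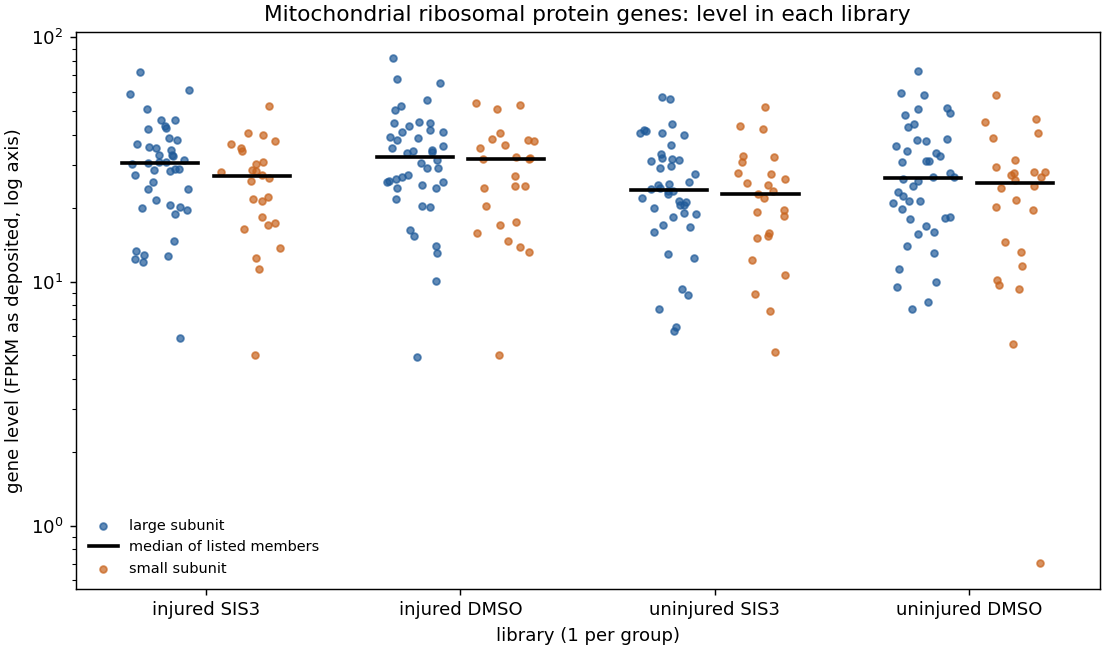
Level of each member (FPKM as deposited, log axis) in the 4 libraries, with large-subunit members in blue, small-subunit members in orange and the median of listed members as a black bar. Most members lie close together in all 4 libraries, and the lone point near the bottom of uninjured DMSO is mrps28 at 0.701 FPKM; members not listed are not drawn.

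The highest member by mean level was mrpl12, whose product forms the flexible stalk that binds translation factors (chromosome 3, 49018919 to 49031231, minus strand, GRCz10). It had 72.3 FPKM in injured SIS3 and 82.7 FPKM in injured DMSO, against 56.0 FPKM in uninjured SIS3 and 58.0 FPKM in uninjured DMSO. Both injured libraries were above both uninjured ones. Its partner at the stalk base, mrpl10, had 21.7, 27.2, 21.4 and 23.2 FPKM in the same order of libraries. Next came mrpl32, a zinc-binding protein that is trimmed by the m-AAA protease before it joins the large subunit, at 60.7, 67.4, 56.8 and 72.6 FPKM. In uninjured SIS3 and in uninjured DMSO it was the highest member. The highest small-subunit member was mrps34, at 52.5, 53.7, 52.1 and 57.9 FPKM, followed by mrps12, a protein of the decoding centre, at 37.8, 52.9, 43.5 and 46.5 FPKM.

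The lowest large-subunit member by mean was mrpl58, a release-factor-like protein that frees peptides from stalled ribosomes, with 5.85 FPKM in injured SIS3, 4.90 FPKM in injured DMSO, 6.51 FPKM in uninjured SIS3 and 7.74 FPKM in uninjured DMSO. Among small-subunit members listed in every library the lowest was mrps25, at 5.01, 4.99, 5.12 and 5.53 FPKM, nearly the same in all 4. These are first-exon sums. Its last exon had 1.09 FPKM in injured SIS3 and 0.93 FPKM in injured DMSO, and was not listed in either uninjured library. The members named above for human cardiomyopathy were neither the lowest nor the highest of their subunit by mean level. Levels are given here for injured SIS3, injured DMSO, uninjured SIS3 and uninjured DMSO in turn. The gene mrpl3 had 28.9, 29.1, 20.5 and 21.4 FPKM and mrpl44 had 19.6, 21.9, 16.7 and 16.8 FPKM. Both were somewhat higher in the injured libraries, by less than 2-fold. In every library mrpl44 was below the lower quartile of the members, at 20.3, 24.1, 17.1 and 18.0 FPKM over the 69 listed in all 4. The entry of mrps22 had 27.4, 32.0, 30.8 and 28.2 FPKM, with changes of −0.04 for injury in DMSO and −0.23 for injury in SIS3. It sums separate transcript groups, given below, which may be separate genes.

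A pair of members fell outside this pattern because they were mostly not listed. The gene mrps21, a relative of a bacterial small-subunit protein (chromosome 19, 9039209 to 9043981, minus strand), was at 12.5 FPKM in injured SIS3 and not listed in injured DMSO, uninjured SIS3 or uninjured DMSO, where it was set to 0. The other, mrps28, was at 0.701 FPKM in uninjured DMSO and not listed in the other libraries. It did not reach the mean of 1 FPKM needed for comparison, so 70 members were compared. A missing entry can be a failed estimate: the cardiac myosin gene myh6 was not listed in either uninjured library, and 1 of 71 cytosolic ribosomal proteins was not listed in 3 libraries. No fold is therefore given for mrps21, although it counts as called wherever injured SIS3 is compared.

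Injury was read first in the vehicle, where ventricular cardiomyocytes had been ablated without the inhibitor. No member of 70 was called higher and none was called lower in injured DMSO against uninjured DMSO, while 6.56% of all 13575 genes compared were called higher and 8.7% lower. The median change was −0.01 for the 44 large-subunit and −0.03 for the 26 small-subunit members, beside −0.01 for all genes. Without scaling these were 0.20 and 0.18, beside 0.17 for all genes (0.03 and 0.01 above it), so the sign of the members' median depends on scaling. Changes of 63 members (90%) lay within 0.5 of 0, against 59.7% of all genes.

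The members furthest from 0 were as follows. The gene mrpl1, whose product forms the L1 stalk beside the exit site of tRNAs, had 16.3 FPKM in injured DMSO and 8.22 FPKM in uninjured DMSO (log2 change 0.71). For mrps18b, one of 3 zebrafish relatives of a bacterial small-subunit protein, the levels were 24.2 FPKM in injured DMSO and 13.2 FPKM in uninjured DMSO (0.61). Its relatives changed less, with 37.5 and 29.4 FPKM for mrps18a (0.13) and 31.7 and 27.8 FPKM for mrps18c (−0.03) in the same order. On the other side, mrpl36, a short protein of the large subunit with a bacterial relative, had 20.3 FPKM in injured DMSO and 30.8 FPKM in uninjured DMSO (−0.79). The stalled-ribosome factor mrpl58 had a change of −0.76. The small-subunit gene mrps2, with 15.8 FPKM in injured DMSO and 21.5 FPKM in uninjured DMSO, had a change of −0.63. None of these passed 2-fold.

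The same comparison under the inhibitor set injured SIS3 against uninjured SIS3. Here 1 member of 70 was called higher, mrps21, which was not listed in uninjured SIS3, and none was called lower. The shares over all genes were 6.45% higher and 6.59% lower. Medians were 0.18 for the large and 0.18 for the small subunit, beside −0.01 for all genes and 0.06 for genes averaging 5 FPKM or more. Above 0 were 54 members (77.1%, beside 49.5% of all genes), and 16 were below. Without scaling the medians were 0.25 and 0.25, beside 0.05 for all genes.

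Apart from mrps21, the change nearest 2-fold was that of mrpl9, a large-subunit protein with a bacterial relative (chromosome 19, 7599379 to 7606663, minus strand), with 13.3 FPKM in injured SIS3 and 6.29 FPKM in uninjured SIS3 (0.91). The mitochondria-specific small-subunit gene mrps23 had 17.3 FPKM in injured SIS3 and 8.86 FPKM in uninjured SIS3 (0.83). A similar value was seen for mrpl33, at 23.9 FPKM in injured SIS3 and 12.5 FPKM in uninjured SIS3 (0.82). At the low end stood mrpl2, a protein near the catalytic centre of the large subunit. It had 12.8 FPKM in injured SIS3 and 22.1 FPKM in uninjured SIS3 (−0.80, but −0.05 from its first exon alone).

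The effect of the compound was then read within each condition. In injured SIS3 against injured DMSO, 1 member of 70 was called higher (mrps21, not listed in injured DMSO) and none lower, against 3.2% and 1.13% of all genes. The medians were −0.09 for the large and 0.02 for the small subunit, and the small-subunit value was −0.04 without scaling. Nearly all members were close to 0, with 67 (95.7%) within 0.5 against 83.7% of all genes. The largest change among members listed in both libraries was that of mrpl36, with 31.0 FPKM in injured SIS3 and 20.3 FPKM in injured DMSO (0.64). The lowest was mrpl2, with 12.8 FPKM in injured SIS3 and 20.2 FPKM in injured DMSO (−0.57, but 0.15 from its first exon alone).

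In uninjured SIS3 against uninjured DMSO no member was called in either direction, against 1.79% of all genes higher and 1.45% lower. Yet most members were shifted the same way, with 61 of 70 below 0 and 8 above (11.4%, beside 48.6% of all genes). The median was −0.25 for the large and −0.20 for the small subunit. It was −0.01 for all genes and −0.05 for genes averaging 5 FPKM or more. Without scaling the medians were −0.16 and −0.11, beside 0.07 for all genes, so they were negative either way. Uninjured SIS3 is also the reference of the injury comparison under SIS3, so the shifts in both are not independent. The shift was largest for mrpl51, a mitochondria-specific large-subunit gene, at 7.74 FPKM in uninjured SIS3 and 13.1 FPKM in uninjured DMSO (−0.78). It was −0.73 for mrpl42, at 20.6 FPKM in uninjured SIS3 and 32.7 FPKM in uninjured DMSO, and −0.67 for mrpl9. The highly expressed mrpl30 had 40.7 FPKM in uninjured SIS3 and 59.4 FPKM in uninjured DMSO (−0.63). In uninjured DMSO the last-exon sum of mrpl30 was lower, at 53.8 FPKM, so its change was smaller from last exons. Among the few above 0, mrpl2 had 22.1 FPKM in uninjured SIS3 and 11.2 FPKM in uninjured DMSO (0.83).

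**Figure D2:**
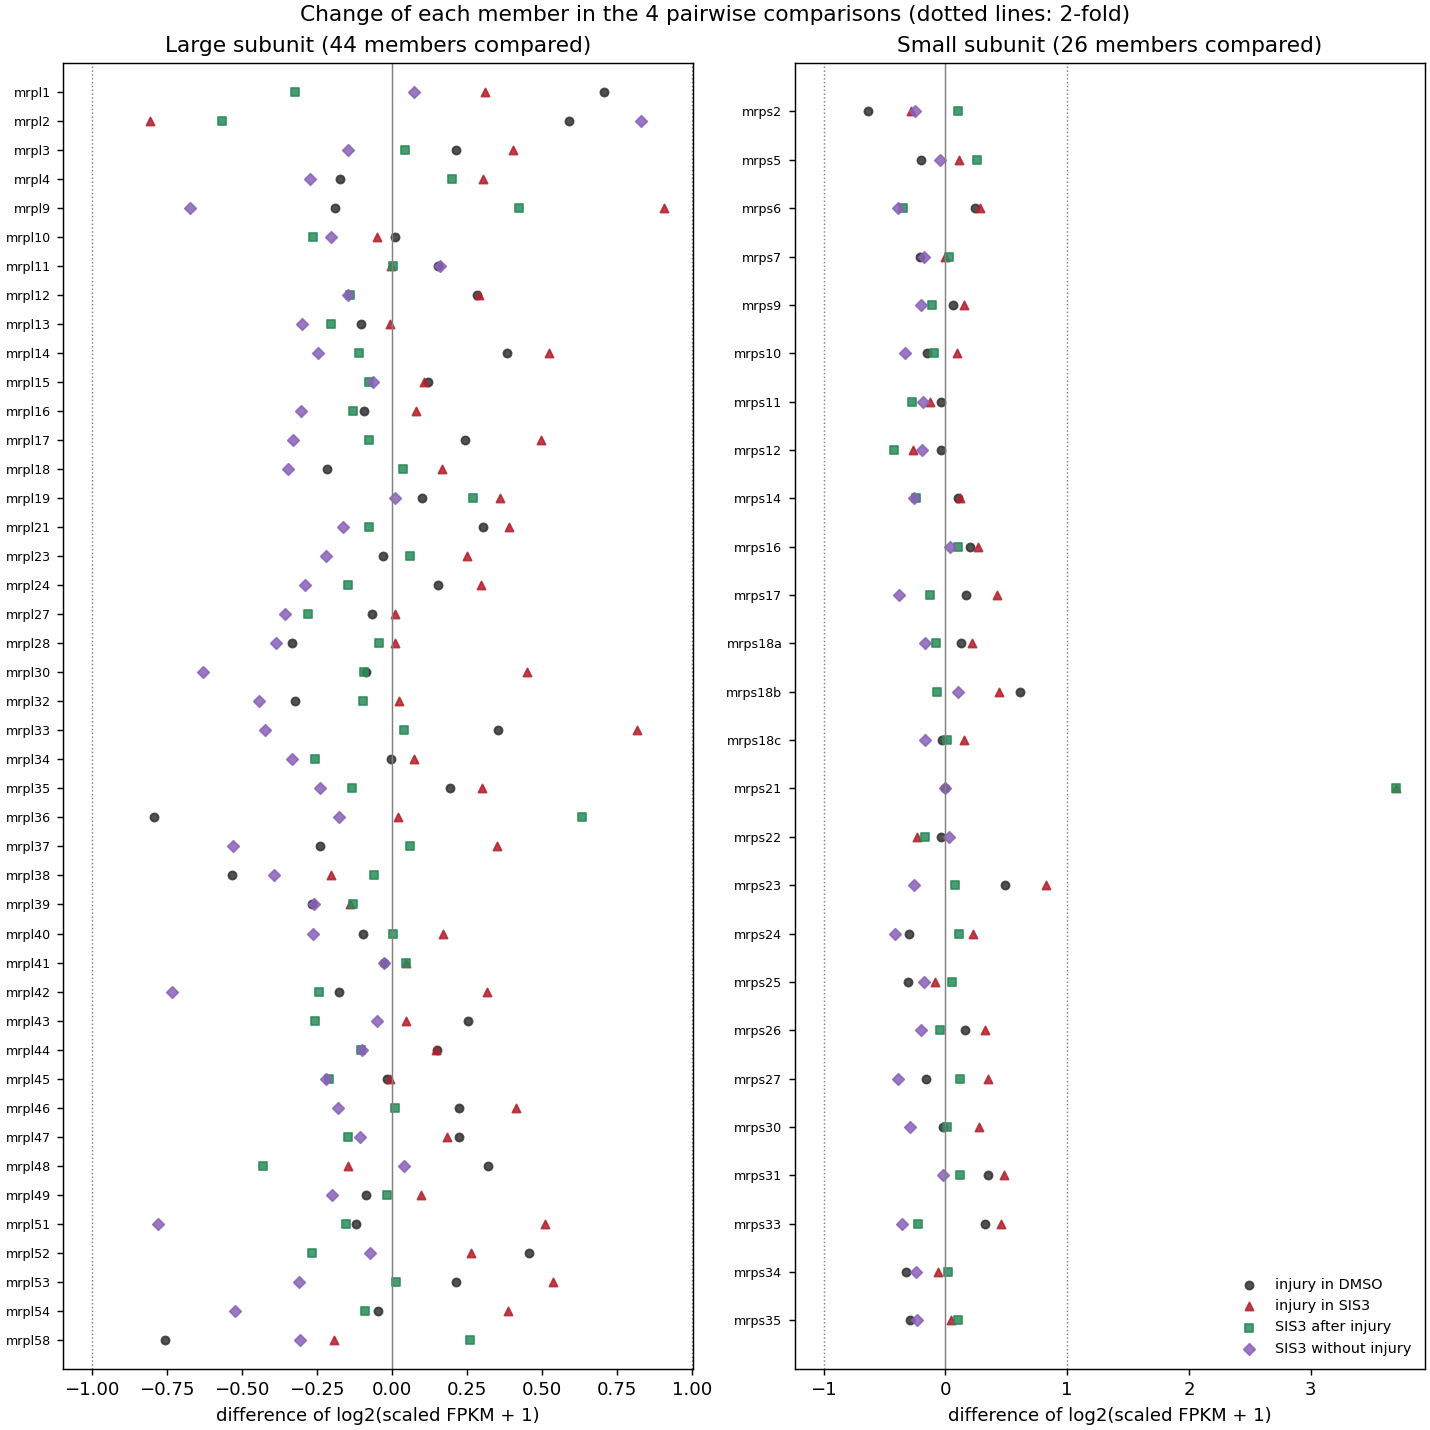
Change of each of the 70 members compared, as a difference of log2(scaled FPKM + 1), in the 4 pairwise comparisons (symbols), with 2-fold marked by dotted lines. The single point outside the dotted lines is mrps21, which was set to 0 where it was not listed, so that its place depends on the pseudocount; the purple diamonds (SIS3 without injury) lie mostly left of 0.

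The injury change under SIS3 minus that under DMSO was past 2-fold upward for 2 members, mrpl9 (1.095) and mrps21, and downward for 1, mrpl2 (−1.40), against 4.91% and 3.15% of all genes. The mrpl9 value was 0.96 without scaling and 0.79 with a pseudocount of 5 FPKM, which ends its call, and mrps21 rests on libraries in which it was not listed. The medians were 0.18 for the large and 0.19 for the small subunit, and 0.03 and 0.05 without scaling, where all genes had −0.11. These differences use all 4 libraries once each, so they are not independent of the pairwise comparisons, and they were not tested. For mrpl9 the levels were 13.3 FPKM in injured SIS3, 10.03 FPKM in injured DMSO, 6.29 FPKM in uninjured SIS3 and 9.92 FPKM in uninjured DMSO. Uninjured SIS3 was the low one and injured SIS3 the high one. The gene mrpl2 had its higher levels in injured DMSO and uninjured SIS3 and its lower levels in injured SIS3 and uninjured DMSO.

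The tables list transcript events, not whole genes, and show which exons carried some of these values. First-exon and last-exon sums of a member lay within 0.1% of each other for 61 of the 67 members with both sums in injured SIS3, 60 of 66 in injured DMSO, 60 of 65 in uninjured SIS3 and 60 of 66 in uninjured DMSO. Events of a gene often carry the same value. In mrpl3 the first exon, the last exon and a retained intron all had 28.9078 FPKM in injured SIS3. Such sums are not separate measurements, so their agreement is no check of the level. The crossed pattern of mrpl2 (chromosome 13, 51650907 to 51663021, minus strand) sat in 1 of its last exons, 51653165 to 51653964, which had 10.6 FPKM in injured SIS3, 17.9 FPKM in injured DMSO, 19.5 FPKM in uninjured SIS3 and 9.52 FPKM in uninjured DMSO. Its only listed first exon had 2.60, 2.34, 2.58 and 1.68 FPKM in the same order. With first exons alone the difference of injury changes for mrpl2 was −0.21 in place of −1.40. Its change was then −0.05 for injury in SIS3 and 0.15 for SIS3 after injury.

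In mrpl36 (chromosome 19, 28699897 to 28705990, plus strand) a pair of last-exon forms begin at 28703925 and 28703929 and share their end. The earlier form had 12.9 FPKM in injured SIS3, 13.8 FPKM in injured DMSO, 14.6 FPKM in uninjured SIS3 and 16.0 FPKM in uninjured DMSO. The later form had 18.1, 6.48, 14.5 and 14.9 FPKM, so the low gene level in injured DMSO lay in this form. The earlier form made up 41.5% of the gene in injured SIS3, 68.1% in injured DMSO, 50.1% in uninjured SIS3 and 51.8% in uninjured DMSO.

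The gene mrpl51 (chromosome 16, 4711692 to 4717682, minus strand) also had a pair of first-exon forms. The form spanning 4717449 to 4717682 had 2.78 FPKM in injured SIS3, 4.22 FPKM in injured DMSO, 1.37 FPKM in uninjured SIS3 and 6.88 FPKM in uninjured DMSO. Its share of the gene was 23.1%, 30.1%, 17.7% and 52.6%, and uninjured DMSO was the only library in which it held the larger share. Over all members, 6 had more than 1 first exon, 8 more than 1 last exon and 12 another event. In mrpl24 the retained form of an intron made up 89.6%, 92.4%, 86.1% and 87.8% of the retained and spliced forms in injured SIS3, injured DMSO, uninjured SIS3 and uninjured DMSO. The retained form had 19.1, 18.6, 14.2 and 17.0 FPKM of a gene level of 38.6, 44.4, 29.7 and 34.1 FPKM, while both forms together came to its first-exon level of 21.3, 20.1, 16.5 and 19.3 FPKM. The entry of mrps22 (chromosome 15, 6930221 to 6969449, minus strand) holds separate transcript groups, one starting at 6949489 and one at 6969449, and its level is their sum.

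The lists around the members had other medians. Nuclear-encoded subunits of oxidative phosphorylation (87 compared) had a median of −0.59 in injured DMSO against uninjured DMSO, with 10 called lower (11.5%, beside the 8.7% of all genes) and none higher. In injured SIS3 against uninjured SIS3 the median was −0.31, with 4 called lower (4.6%, beside 6.59%) and none higher. Without scaling the first median was −0.37, beside 0.17 for all genes, with 8 called lower. The lowest changes of the list for injury in DMSO, far below its median, were as follows. A gene entry named cox6a1, a cytochrome oxidase subunit, had 34.6 FPKM in injured DMSO and 408 FPKM in uninjured DMSO (−3.74). The gene cox4i1l had 30.02 FPKM in injured DMSO and 251 FPKM in uninjured DMSO (−3.24). A further entry named cox6a1 had 510 FPKM in injured DMSO and 750 FPKM in uninjured DMSO (−0.78) and was not called. Cytosolic ribosomal proteins (70 compared) had a median of −0.64 for injury in DMSO, with 12 called lower (17.1%, beside 8.7% of all genes) and none higher. For injury in SIS3 their median was −0.25, with 3 lower (4.29%, beside 6.59%) and 1 higher (1.43%, beside 6.45%). Without scaling the first median was −0.42 and 3 were called lower. For neither list is the share of all genes called without scaling given here, so the unscaled counts of 8 and 3 cannot be set against all genes. The medians of these 2 lists were also below 0 for uninjured SIS3 against uninjured DMSO, at −0.32 and −0.44, where the members stood at −0.24 together.

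A ratio within each library does not depend on scaling. The summed level of the members was 12.6% of that of oxidative phosphorylation subunits in injured SIS3 and 13.1% in injured DMSO, against 8.38% in uninjured SIS3 and 8.01% in uninjured DMSO. Relative to cytosolic ribosomal proteins it was 2.39% in injured SIS3 and 2.40% in injured DMSO, against 1.77% in uninjured SIS3 and 1.53% in uninjured DMSO. Both ratios were higher in both injured libraries than in both uninjured ones. The median member stood at 23.3% of the median oxidative phosphorylation subunit in injured SIS3 and 25.2% in injured DMSO, against 16.5% in uninjured SIS3 and 16.0% in uninjured DMSO. The summed level of the members themselves does depend on scaling. As deposited it was 2034 FPKM in injured SIS3, 2213 FPKM in injured DMSO, 1715 FPKM in uninjured SIS3 and 1922 FPKM in uninjured DMSO. After scaling it was 1958, 2052, 1735 and 2079 FPKM in the same order, so injured DMSO was then below uninjured DMSO. The deposited sums of oxidative phosphorylation subunits in that order were 16120, 16871, 20462 and 23987 FPKM, so these sums were lower in the injured hearts.

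**Figure D3:**
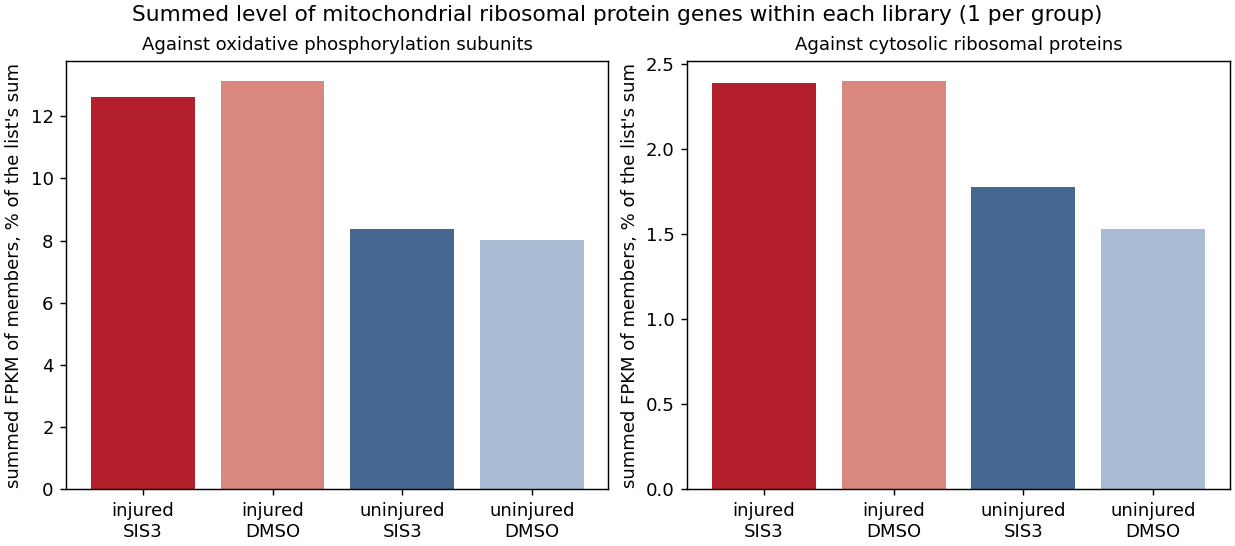
Summed FPKM of the members in each library (1 per group) as a percentage of the summed FPKM of oxidative phosphorylation subunits (left) and of cytosolic ribosomal proteins (right). The injured bars stand at 12.6% and 13.1% on the left and at 2.39% and 2.40% on the right, above the uninjured bars in both panels.

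Other lists of mitochondrial gene expression differed in direction, and some lay mostly on 1 side of 0. No gene of 21 assembly factors was called in any of the 4 pairwise comparisons, and their median was −0.17 for injury in DMSO and −0.05 for injury in SIS3. For injury in DMSO 16 of them were below 0 and 5 above, and for SIS3 without injury 17 were below and 4 above. The GTPase eral1, which chaperones the small-subunit RNA, had 2.53 FPKM in injured DMSO and 4.01 FPKM in uninjured DMSO (−0.67). The 16 translation factors also had no call, with medians of −0.12 and 0.09. They included the elongation factor tufm with 78.7 FPKM in injured DMSO and 71.7 FPKM in uninjured DMSO (−0.09), and its exchange factor tsfm with 18.1 FPKM in injured DMSO and 7.96 FPKM in uninjured DMSO (0.89). The 13 mitochondrial tRNA synthetases had no pairwise call, with medians of −0.04 and −0.18. The 24 import proteins had medians of 0.14 and 0.31. For injury in SIS3 20 were above 0 and 4 below, and for SIS3 without injury 5 were above and 19 below, the same directions as the members. For injury in SIS3, 2 of them (8.33%, beside 6.45% of all genes) were called higher, timm22 of the inner-membrane carrier translocase at 11.3 FPKM in injured SIS3 and 3.35 FPKM in uninjured SIS3, and tomm34 at 11.7 FPKM in injured SIS3 and 4.80 FPKM in uninjured SIS3.

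Of 13 genes for mitochondrial DNA and transcript maintenance, 1 was called in a pairwise comparison, the RNA polymerase polrmt. It was lower without injury, at 1.18 FPKM in uninjured SIS3 and 3.18 FPKM in uninjured DMSO (−0.94 without scaling, which ends the call). This is 7.69% of the list, beside 1.45% of all genes. The polrmt regulator tfam had 33.8 FPKM in injured DMSO and 28.5 FPKM in uninjured DMSO (0.03). The 9 regulators of mitochondrial genes had a median of −0.33 for injury in DMSO, with 2 called lower (22.2%, beside 8.7% of all genes). For injury in SIS3 their median was −0.58, with 1 called lower (11.1%, beside 6.59%). Of the 9, 7 were below 0 in the first comparison and 8 in the second. The coactivator ppargc1a fell to 1.51 FPKM in injured DMSO, against 4.09 FPKM in uninjured DMSO, and to 1.59 FPKM in injured SIS3, against 4.26 FPKM in uninjured SIS3. The transcription factor mycn fell to 8.35 FPKM in injured DMSO, against 15.4 FPKM in uninjured DMSO, a change of −1.02 that was −0.81 without scaling and then not called. Under SIS3 it had 10.7 FPKM in injured SIS3 and 15.9 FPKM in uninjured SIS3 (−0.59). With a pseudocount of 5 FPKM the calls of polrmt, ppargc1a, mycn, timm22 and tomm34 were all lost. The factors nrf1 and gabpa were not called, with changes of −0.22 and −0.23 for injury in DMSO. The 10 mitochondrial chaperones and proteases had medians of 0.22 and 0.30 for the injury comparisons and no call.

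**Figure D4:**
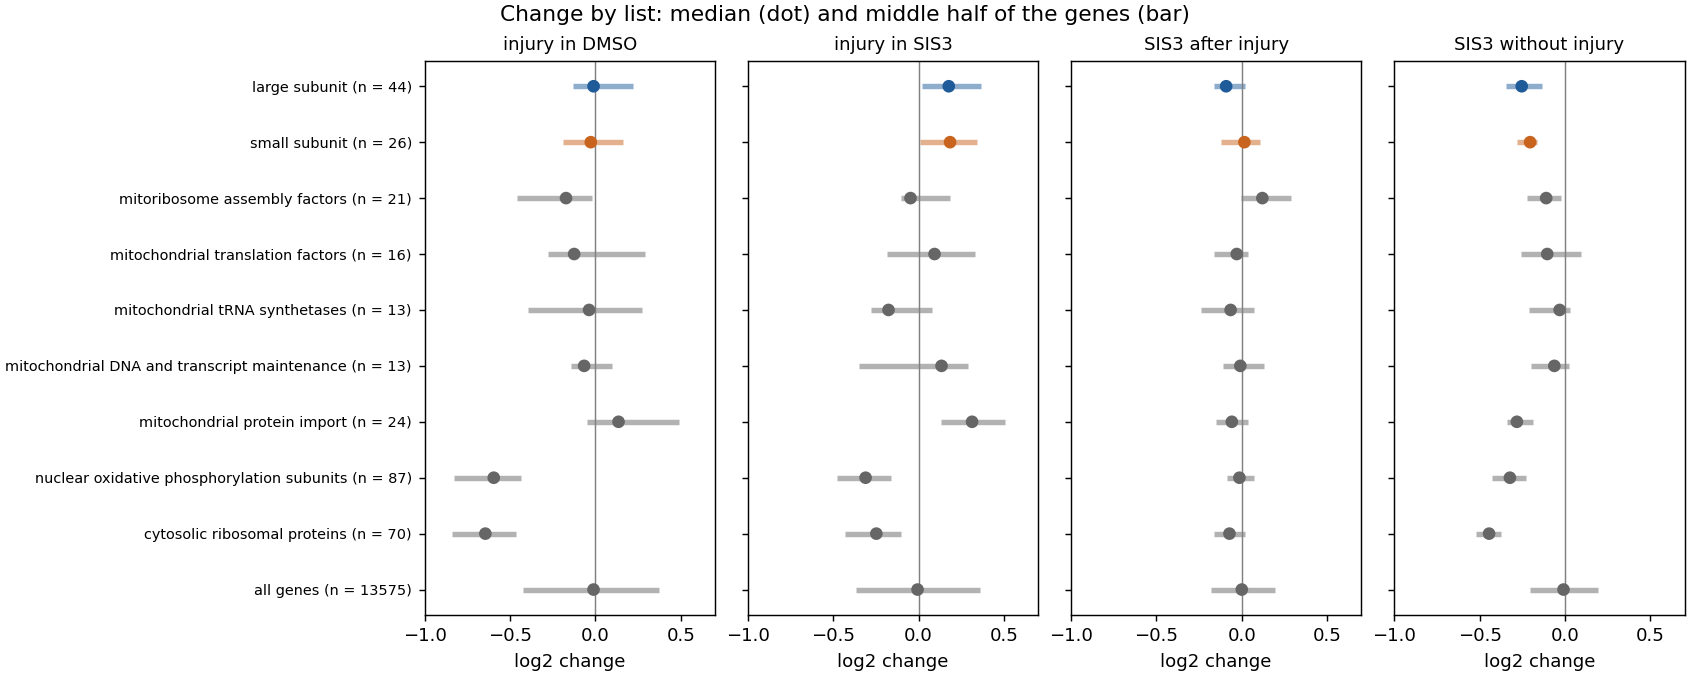
Median log2 change (dot) and the interquartile range (bar) of each list in the 4 pairwise comparisons, with both subunits at the top and all 13575 genes at the bottom. For injury in DMSO the subunits lie at −0.01 and −0.03, while oxidative phosphorylation subunits and cytosolic ribosomal proteins lie at −0.59 and −0.64.

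The subunit by symbol, or a place on a list of proteins with bacterial relatives, made little difference to these medians. The 42 members on that list had medians of 0.00 for injury in DMSO and 0.19 for injury in SIS3. The 28 compared that were not on it had −0.03 and 0.18. The list was written for this report, and some members not on it may have a bacterial relative. Some of the mrps symbols are a matter of naming, since the products of mrps18a and mrps30 sit in the large subunit of the human mitochondrial ribosome. The level of mrps30 was 35.3 FPKM in injured SIS3, 36.2 FPKM in injured DMSO, 27.5 FPKM in uninjured SIS3 and 31.6 FPKM in uninjured DMSO. A further 4 mitoribosomal proteins carry other symbols, among them dap3, a small-subunit GTP-binding protein, at 27.1, 26.9, 22.5 and 26.3 FPKM in the same order. None of the 4 was called in any comparison.

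The members are short genes and many share a start region with another gene. Their median span on the genome was 6080 bases, against 16492 for all genes, and they lay on 22 chromosomes, with at most 7 on 1. A start of another gene on the opposite strand, within 1000 bases upstream or overlapping by at most 100 bases, was found for 24 of 70 members (34.3%), against 8.23% of all genes compared and 9.09% of the genes averaging 5 FPKM or more. This feature was chosen after the values were seen. It was found for 19 of 43 large-subunit members (44.2%) and 5 of 27 small-subunit members (18.5%), against 14.4% of oxidative phosphorylation subunits and 11.3% of cytosolic ribosomal proteins. Within 500 bases the share was 25.7% of members against 5.22% of all genes, and within 2000 bases 37.1% against 12.5%.

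The pairs named here were chosen after their values were seen. The members mrpl46 and mrps11 face each other on chromosome 7, with starts 221 bases apart. The complex I subunit genes ndufs6 and ndufb5 start 276 bases from mrpl36 and 419 bases from mrpl47. The mitochondrial helicase gene twnk starts 213 bases from mrpl43, the proteasome gene psma2a 280 bases from mrpl32 and the prefoldin gene pfdn6 234 bases from mrpl11. The 24 members with such a neighbour had a median change of −0.03 for injury in DMSO and 0.09 for injury in SIS3, against −0.16 and −0.12 for the neighbours. Of the 24, 11 had a sign opposite to that of their neighbour for injury in DMSO. The pair of mrpl46 (0.22) and mrps11 (−0.04) counts from both sides in the 24, in the 11 and in the neighbours' medians. The share over all such pairs of genes was not computed. One of the 11 was mrpl1, with its change of 0.71. Its neighbour cnot6l, starting 759 bases away, had 13.02 FPKM in injured DMSO and 25.6 FPKM in uninjured DMSO (−1.13, and −0.92 without scaling). Whether reads were counted by strand is not given, so reads of genes that overlap cannot be told apart.

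**Figure D5:**
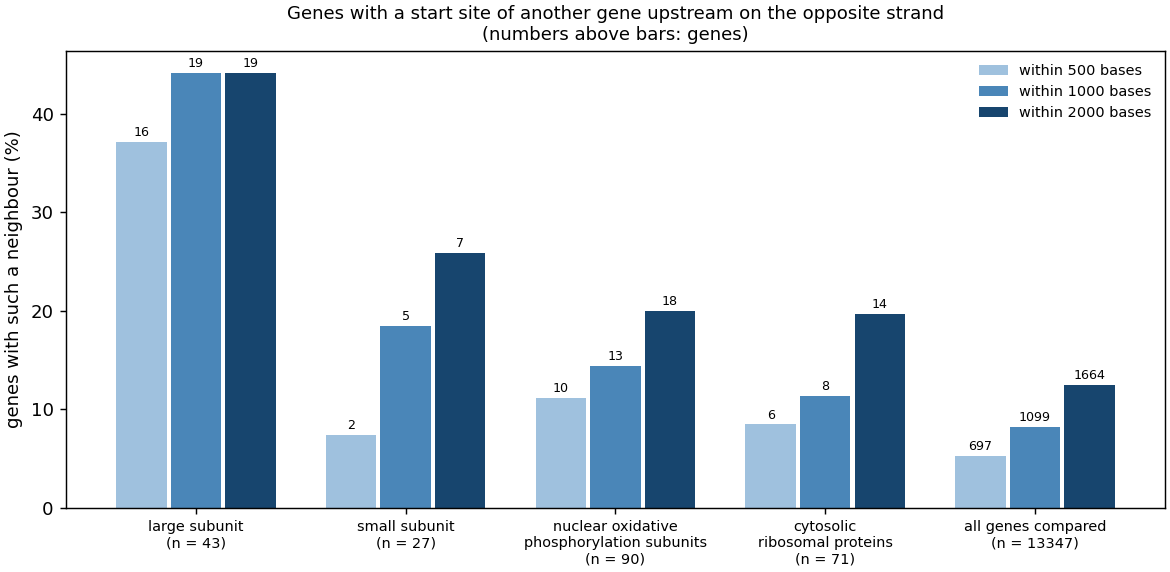
Percentage of genes that have the start of another gene upstream on the opposite strand, within 500, 1000 or 2000 bases, for both subunits, both comparison lists and all genes compared; numbers above the bars count genes. Within 1000 bases the large subunit stands at 44.2% and all genes at 8.23%.

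The libraries differed in more than the members. They listed 16657 genes in injured SIS3, 15691 in injured DMSO, 18207 in uninjured SIS3 and 17437 in uninjured DMSO, and their depth is unknown. Cardiomyocyte markers (7 of 10 symbols in the tables) had a summed level of 8071, 8363, 10050 and 9662 FPKM in that order, with cmlc1 not listed in injured SIS3 and myh6 in neither uninjured library. Of the 7, 5 were below 0 in each injury comparison (medians −0.82 in DMSO and −1.44 in SIS3), while nppa was at 3676, 3718, 1073 and 983 FPKM. Summed macrophage markers (7 of 10) were at 189, 297, 46.3 and 45.6 FPKM, and epicardial and fibroblast markers (5 of 8) at 639, 851, 246 and 242 FPKM. Of the latter 5, 4 were above 0 in each injury comparison and 1 below, the lowest at −0.20 in DMSO and −1.35 in SIS3. Endocardial and endothelial markers (6 of 8) were at 177, 196, 195 and 169 FPKM. The only erythrocyte marker in the tables (1 of 6) was at 5313, 4586, 5940 and 6718 FPKM. Liver markers (11 of 12) were at 2524 FPKM in injured SIS3, against 266, 211 and 359 FPKM in injured DMSO, uninjured SIS3 and uninjured DMSO, with hpxb not listed in injured DMSO. Markers of exocrine pancreas (6 of 10) were at 420, 225, 1236 and 1051 FPKM, with pla2g1b not listed in injured DMSO. Neural and eye markers (6 of 10) were at 44.9, 36.1, 143 and 180 FPKM, with 5 of them not listed in injured DMSO and 2 in injured SIS3. Skeletal muscle markers (4 of 11) were at 502, 345, 759 and 909 FPKM. The part of these tissues in the members' values was not tested.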

How the data were processed

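RNA sequencing of whole larval hearts gave 1 table per group. The deposited values are FPKM per transcript event, such as a first exon, a last exon or a retained intron, and were computed by the authors, per the file headers. HISAT2 2.0.5, CASAVA 1.8 and HTSeq 0.6.1 are named in the submitters' processing notes, with the build GRCz10. The program that wrote the tables, and whether strand was used, are not given in the sources used here. Repeated entries (293 to 346 a library) were used once. A gene's level was taken from its first-exon or its last-exon events, whichever sum was larger, and a gene not listed was set to 0. Either sum can miss a transcript, so a level can come from 1 exon form. Read counts, depth and counting intervals could not be had from these values.

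Scaling used the median of ratios over the 4 libraries (log2 factors −0.05, −0.11, 0.02 and 0.11 for injured SIS3, injured DMSO, uninjured SIS3 and uninjured DMSO), and changes are differences of log2(scaled FPKM + 1). Without scaling the median of all genes was 0.17 for injury in DMSO and −0.11 for the difference of injury changes. Genes averaging 1 FPKM or more were compared (13575 of 20269) and called at 2-fold. No test was made with 1 library per group. The calculation of changes was tested on simulated data, but only for well-expressed genes listed in all 4 libraries. That test did not cover low genes, genes not listed, or the choice between first-exon and last-exon sums. Python 3.11.15, pandas 2.3.3, NumPy 2.4.6 and matplotlib 3.10.9 were used.

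The members and lists were chosen with earlier results of these data known. Members were eligible to be named by a rule: per subunit and pairwise comparison the 3 highest and 3 lowest changes in members reaching 5 FPKM, every member past 2-fold or not listed somewhere, the 3 highest and 3 lowest mean levels, and 17 members whatever their values. The rule gave 42 members. Not all of them are described, among them mrpl38, mrpl39, mrps5 and mrps7 of the 17, so the members described are a selection. Of the pathway lists the 2 largest changes in each injury comparison were eligible, with 6 further genes whatever their values. The divergent neighbours and the exon forms were chosen after their values were seen. Alternatives were other scaling, pseudocounts of 0.1 and 5 FPKM, no filter or a filter at 5 FPKM, first or last exons alone, and only genes listed in all 4 libraries. A planned description of promoter motifs was not run, since no promoter sequence was used here.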

Additional observations from a re-analysis of the deposited data

Results flagged for a closer look

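The injury change had opposite signs under SIS3 and under DMSO for 29 of 70 members. The share over all genes was not computed, and most changes lay near 0, so this count is not read as a trait of the members. It also depends on scaling: without it 57 members were above 0 for injury in DMSO and 60 for injury in SIS3. For 2 of the 29 the changes differed by at least 2-fold. The difference was not tested because each group has 1 library. For mrpl2 the injury change was −0.80 under SIS3 and 0.59 under DMSO, a difference of −1.40 on the log2 scale. For mrpl9 it was 0.91 under SIS3 and −0.19 under DMSO, a difference of 1.095, which was 0.96 without scaling and 0.79 with a pseudocount of 5 FPKM and then below 2-fold. The mrpl2 value rests on 1 last-exon form and was −0.21 with first exons alone.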

How the results depend on the processing

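No paired analysis was possible because each group has 1 library and no test was made. A median was taken as moved only where it shifted by at least 0.1 on the log2 scale. Over all pairs of a subunit's count or median and an alternative setting, 283 stayed and 17 moved, and none turned a called value round. With first or last exons alone most members keep the same level, so little could move in those settings. All 44 large-subunit members were kept with no filter, with the filter at 5 FPKM and with only genes listed in all 4 libraries. Scaling was the same there, so no large-subunit value could move in those settings. Most counts of called members were 0 in the main setting and had no direction to turn round. The number that stayed is therefore no measure of how firm the results are. Smaller shifts are among the pairs that stayed. The small-subunit median for SIS3 after injury, for example, was 0.02 with scaling and −0.04 without. Without scaling, the medians for injury in DMSO were 0.2039 (large subunit) and 0.1829 (small), and those for the difference of injury changes 0.0346 and 0.0475. The count of small-subunit members called higher was 0 in place of 1 for injury in SIS3, SIS3 after injury and the difference of injury changes, with the filter at 5 FPKM, with only genes listed in all 4 libraries, and without mrpl2, mrps21, mrps22 and mrps28 (an alternative chosen after seeing the data). For the difference, the large-subunit count called higher was 0 in place of 1 without scaling and with a pseudocount of 5 FPKM, where mrpl9 stood at 0.96 and 0.79. The large-subunit count called lower was 0 in place of 1 with first exons alone and without those 4 members. With 1 library per group the spread between hearts is unknown.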
